A study of Mus musculus with 6 samples.

Results

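The genes for heterogeneous nuclear ribonucleoproteins (hnRNPs) and serine/arginine-rich (SR) splicing factors were followed in mouse islet cells with and without 14-3-3ζ in β cells. Members were the genes whose symbol starts with Hnrnp, or with Srsf and a digit. They came to 31 of the 32285 genes listed for each library, 20 hnRNP genes and 11 SR genes. The UMIs of each member were summed per library over the cells of a type. Members were set by symbol and not by their values, though earlier results of these data were known. All but Srsf12 passed the filter on low counts in every comparison, and the 30 that passed are described together.

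The study asked what loss of 14-3-3ζ, a phosphoserine-binding scaffold protein, does to β cells. Islets came from C57/BL6 mice aged 12 to 14 weeks, 3 WT and 3 KO, with 1 library of 3′ single-cell RNA-Seq for each. Both groups carried the Ins1-CreThor allele, which drives Cre recombinase from an insulin gene, and KO mice also carried Ywhaz alleles with LoxP sites around exon 4. The WT mice were Cre-positive littermates, so an effect of Cre itself is shared by both groups.

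hnRNPs coat nascent transcripts and influence splice site choice, export, stability, and localization of RNA. SR proteins bind exonic enhancers through RNA recognition motifs and recruit the spliceosome through a domain rich in arginine and serine that kinases phosphorylate. The families often act in opposite directions on the same exon, and 14-3-3 proteins are known to bind the phosphorylated form of Srsf10. β cells are also known to share several splicing regulators with neurons.

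The libraries held 4400 to 10722 barcodes and 74083947 to 98294915 UMIs. Cells were assigned by the hormone that led their UMIs or by canonical markers, with 754 to 1119 β cells per library. The other types tested had 46 to 175 α cells, 66 to 121 δ cells, 100 to 237 endothelial cells, and 55 to 119 macrophages per library. The defining markers of each type were present in all 6 libraries, except that the δ marker Lepr was at 0 in 5. Of 25127 barcodes kept, 80 occurred in more than 1 library. For the comparison of genotypes in β cells, KO cells in which Ywhaz was detected were removed, following the study. The 566 to 664 KO β cells kept per library had a median of 22075 to 30366 UMIs, against 28791 to 43672.5 in WT. With no KO cell left out, Ywhaz was at 187, 212, and 199 CPM in the WT libraries and 24.4, 23.8, and 24.2 CPM in the KO libraries (log2 fold change −3.05 ± 0.08 SE, edgeR adjusted p = 9.098e-07). The 3′ tags lie outside the deleted exon and do not read the deletion itself. In α, δ, endothelial, and macrophage cells, the Ywhaz log2 fold change lay between −0.25 and 0.00, and no type passed the test. The p-values between genotypes, in fits without a block, measure the spread between mice of a group. Fits between cell types had library as a term, and fits with a replicate block had the library number. Their p-values measure the spread left after that term.

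In β cells, hnRNP genes held the highest levels. Values are CPM, UMI counts scaled to a common library size with edgeR's TMM factors. Each molecule gives 1 UMI near its 3′ end, so no correction for length was made. Other differences between genes in how their molecules are captured or assigned were not corrected or tested. Hnrnpu, a nuclear scaffold protein, led with 281, 228, and 264 CPM in WT and 250, 227, and 240 CPM in KO. Hnrnpa2b1, which binds and sorts mRNA, had 280, 238, and 272 CPM in WT and 243, 228, and 222 CPM in KO. Its highest KO library lay above its lowest WT library. Hnrnpa3, a close relative, had 247, 237, and 244 CPM in WT and 210, 202, and 206 CPM in KO, with no overlap. Hnrnpk, a protein that binds cytosine-rich RNA, had 222, 223, and 224 CPM in WT and 220, 220, and 209 CPM in KO. Srsf5, the most abundant SR gene, had 159, 155, and 153 CPM in WT and 151, 159, and 156 CPM in KO. Hnrnpab, another RNA-binding member, had 121, 135, and 131 CPM in WT and 124, 131, and 129 CPM in KO. The order of Hnrnpu, Hnrnpa2b1, Hnrnpa3, and Hnrnpk changed between libraries, and all 4 lay above every other member in each of the 6 libraries.

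The other hnRNP genes had means over the 6 libraries between 27.9 and 121 CPM. Hnrnpdl had 121 CPM and its relative Hnrnpd, which binds AU-rich elements, 96.9 CPM. Of the proteins that bind G-rich RNA, Hnrnpf had 121 CPM, Hnrnph1 117 CPM, Hnrnph2 54.5 CPM, and Hnrnph3 38.6 CPM. The relatives of Hnrnpu differed, Hnrnpul2 at 111 CPM and Hnrnpul1 at 60.8 CPM. Hnrnpc, which packages nascent transcripts, had 105 CPM, and Hnrnpa1, the classical antagonist of SR proteins, 98.5 CPM. Hnrnpm had 86.5 CPM, Hnrnpr 76.8 CPM, Hnrnpa0 57.6 CPM, Hnrnpl, which binds CA repeats, 66.1 CPM, and its relative Hnrnpll 27.9 CPM. Among SR genes, Srsf11 had 126 CPM, Srsf3 99.9 CPM, Srsf7 79.5 CPM, Srsf6 76.6 CPM, and Srsf2 63.8 CPM. Srsf10 had 57.8 CPM, Srsf1, the prototype of the family, 55.1 CPM, Srsf9 54.4 CPM, and Srsf4 23.1 CPM. Srsf12 was the exception, with 302 UMIs in 5571 β cells (1.58 CPM without TMM), 27 UMIs in α cells, 33 in δ cells, and 1 each in endothelial cells and macrophages. Some members share 3′ sequence with annotated copies that are not among the genes counted, and the effect on their counts was not tested. Of the 90-base windows in their last 500 transcript bases, 45.6% for Hnrnpa3, 33.6% for Hnrnpf, and 21.6% for Hnrnpk also occur in other annotated genes, and 6.16% for Hnrnph2, 3.70% for Hnrnpc, and 1.47% for Hnrnpr. Hnrnpm overlaps March2 on the same strand.

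**Figure D1:**
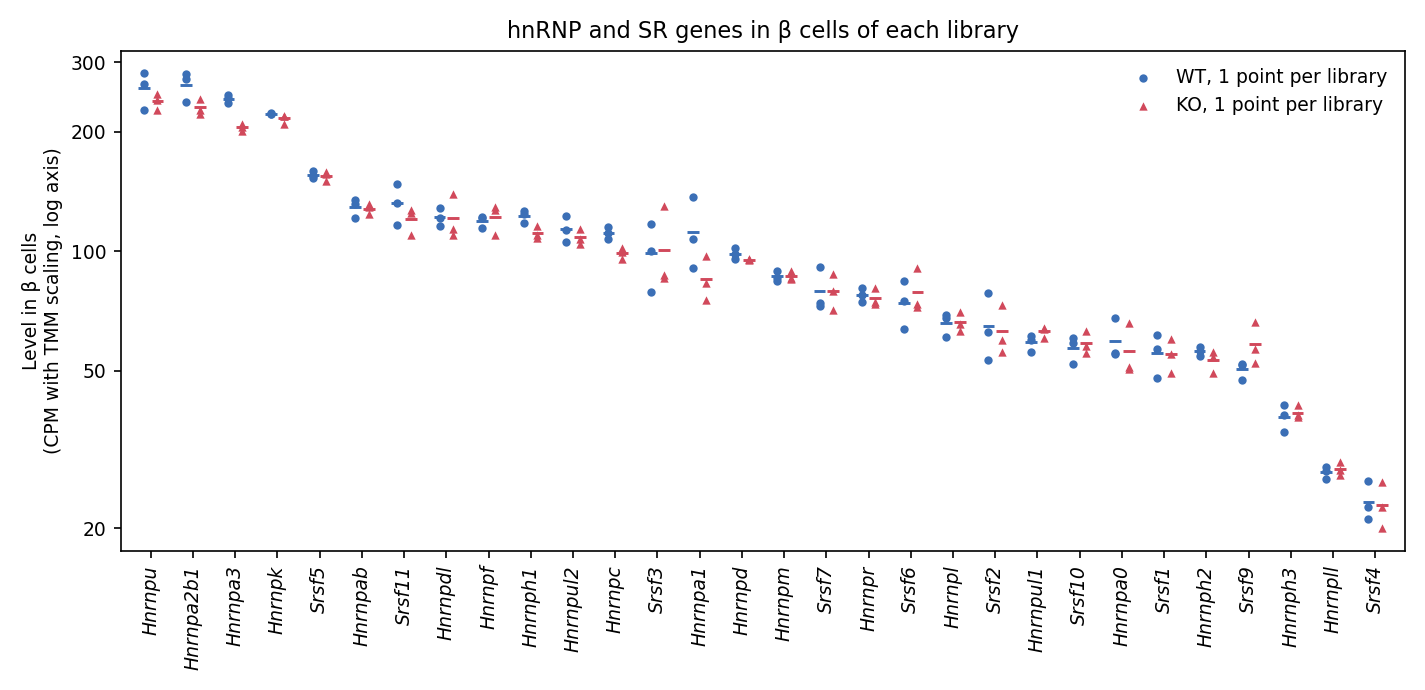
Level of 30 hnRNP and SR genes in β cells, in CPM with TMM scaling on a log axis, with 1 point per library (WT circles, KO triangles) and a bar at each group mean. Hnrnpu, Hnrnpa2b1, Hnrnpa3, and Hnrnpk lie above the rest, and the KO points of Hnrnpa3 lie below all its WT points.

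By their medians, the starts of the members were rich in CpG, though single windows ranged from 6 to 46 CpG. RefSeq promoter windows were matched for 29 members, 41 windows in all, while Hnrnpll and Hnrnpul2 had none. In the 250 bases before the start, member windows had a median of 23 CpG and a GC content of 68.0%, against 6 CpG and 52.4% over 32851 windows of all genes. GGGCGG, searched like the other motifs on both strands, occurred in 80.5% of member windows and 32.7% of all. CCAAT occurred in 48.8% against 33.9%, CGGAAG in 36.6% against 13.6%, and TATAAA in 7.32% against 12.4%. CACGTG occurred in 7.32% of member windows against 6.02% of all, and TGACGTCA in 0.0% against 1.55%. CTCGCGAG occurred in 4.88% against 0.76%, from 2 overlapping windows of 1 gene, Srsf4, and GCATGCGC in 7.32% against 2.26%. Windows of the same gene can overlap, and each was counted. By gene, GGGCGG occurred in 24 of 29 members, CCAAT in 16, and CGGAAG in 11. A match is a description of letters and not a site of binding. The windows of Hnrnpa1, Hnrnpa3, and Hnrnpc, the members with the lowest p between genotypes in β cells, and of Srsf2, an SR gene lower in β cells than in endothelial cells and macrophages, are given on GRCm38.p6, 5′ to 3′, with motif matches in capitals. In Hnrnpa3 and Srsf2, neighbouring GGGCGG matches overlap.
Hnrnpa1, chr15:103240147-103240396, plus strand: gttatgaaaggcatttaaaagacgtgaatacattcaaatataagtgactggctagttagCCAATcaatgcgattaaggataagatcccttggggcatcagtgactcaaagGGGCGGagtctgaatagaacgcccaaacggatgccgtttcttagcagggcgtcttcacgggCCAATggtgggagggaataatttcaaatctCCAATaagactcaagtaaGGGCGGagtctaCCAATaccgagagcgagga
Hnrnpa3, chr2:75659009-75659258, plus strand: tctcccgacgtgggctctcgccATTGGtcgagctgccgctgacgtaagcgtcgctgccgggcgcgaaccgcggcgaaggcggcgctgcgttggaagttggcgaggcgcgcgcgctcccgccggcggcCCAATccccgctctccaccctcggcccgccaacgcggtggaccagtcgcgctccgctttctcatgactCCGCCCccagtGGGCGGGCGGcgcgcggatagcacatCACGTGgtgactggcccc
Hnrnpc, chr14:52104022-52104271, minus strand: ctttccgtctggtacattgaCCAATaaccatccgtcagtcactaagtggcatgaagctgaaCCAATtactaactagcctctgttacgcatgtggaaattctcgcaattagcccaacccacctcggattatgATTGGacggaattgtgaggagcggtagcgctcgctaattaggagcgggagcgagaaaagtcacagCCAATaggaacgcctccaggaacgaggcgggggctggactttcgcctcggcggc
Srsf2, chr11:116853095-116853344, minus strand: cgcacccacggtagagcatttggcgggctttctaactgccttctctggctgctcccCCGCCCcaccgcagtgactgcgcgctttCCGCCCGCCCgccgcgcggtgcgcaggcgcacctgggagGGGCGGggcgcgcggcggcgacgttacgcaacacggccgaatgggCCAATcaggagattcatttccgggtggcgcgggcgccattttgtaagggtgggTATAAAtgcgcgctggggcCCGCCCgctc
The windows of Hnrnpa1 and Hnrnpc hold 4 CCAAT matches each and have 46.0% and 52.8% GC, the former with 11 CpG and the latter with 17. The windows of Hnrnpa3 and Srsf2 are richer, with 73.2% and 69.6% GC and 40 and 33 CpG. Only the windows of Srsf2, Srsf3, and Hnrnpm hold TATAAA among the members.

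Between genotypes, no member was called in β cells, and the members nearest to a call were hnRNP genes with lower values in KO. A call needed an edgeR false discovery rate under 0.05 and a log2 fold change beyond 0.1 in either direction. Of 9452 genes tested, 1 was called, Ywhaz, or 0.0106%, and it was chosen in part by the removal of KO cells with its UMIs. Of the 30 members, 3 had an unadjusted p under 0.05 (5.05% of all genes did), Hnrnpa3, Hnrnpa1, and Hnrnpc. DESeq2 also called 0 members and gave 4 with an unadjusted p under 0.05 (3.93% of all genes). A fit with a replicate block, the library number as a term, called 0 members and gave 6 of this kind. The share over all genes went to 12.5%, and the genes called over the whole table went from 1 to 14. The labels do not say that libraries of the same number were paired.

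Hnrnpa3 was at 243 ± 5.46 CPM in WT and 206 ± 4.03 CPM in KO (SD, n = 3 each), or 0.849 times the WT level. The log2 fold change was −0.24 ± 0.06 (SE, 95% interval −0.38 to −0.09, edgeR adjusted p = 0.872). Hnrnpa1 had 137, 90.6, and 108 CPM in WT and 97.5, 75.2, and 83.1 CPM in KO. Its groups overlapped, yet each KO library lay below the WT library of the same number, and library 2 was the lowest in both genotypes. The log2 fold change of Hnrnpa1 was −0.39 ± 0.15 (95% interval −0.73 to −0.05, edgeR adjusted p = 0.872), the furthest from 0 of any member. With the replicate block it was −0.38 ± 0.07 (edgeR adjusted p = 0.0823). Hnrnpc had 111, 107, and 115 CPM in WT and 102, 95.3, and 99.4 CPM in KO, with no overlap. Its log2 fold change was −0.17 ± 0.07 (95% interval −0.32 to −0.02, edgeR adjusted p = 0.872).

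Further down the list, Hnrnpa2b1 had a log2 fold change of −0.19 ± 0.08 (95% interval −0.38 to 0.00, edgeR adjusted p = 0.872). Hnrnph1, a regulator that binds G-rich tracts, had 126, 118, and 124 CPM in WT and 116, 110, and 108 CPM in KO. All 3 KO libraries of Hnrnph1 lay below the WT libraries, with a log2 fold change of −0.14 ± 0.07 (edgeR adjusted p = 0.872). Srsf11 had 147, 117, and 132 CPM in WT and 127, 110, and 125 CPM in KO, groups that overlapped, with a log2 fold change of −0.13 ± 0.10 (edgeR adjusted p = 0.875). Srsf9, an SR protein with a short arginine and serine domain, went the other way. It had 47.4, 51.7, and 52.1 CPM in WT and 52.3, 66.3, and 56.7 CPM in KO, with no overlap though the nearest libraries differed little. Its log2 fold change was 0.21 ± 0.10 (edgeR adjusted p = 0.872). Hnrnpul1 had 61.3, 55.8, and 59.7 CPM in WT and 63.9, 60.5, and 63.8 CPM in KO, which overlapped, with a log2 fold change of 0.09 ± 0.07 (edgeR adjusted p = 0.875).

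The 3 KO libraries lay entirely under the 3 WT libraries for 4 members, Hnrnpa3, Hnrnpc, Hnrnph1, and Hnrnpk, and above them for 1, Srsf9. Over all genes tested the shares were 5.76% below and 5.86% above. For Hnrnpk the gap between the groups was small, and its log2 fold change was −0.04 ± 0.06 (edgeR adjusted p = 0.933). In a 2-sided exact permutation test over libraries, each of these 5 had p = 0.1, the smallest that 3 against 3 can give. Values were lower in KO for 20 of 30 members, 14 of 20 hnRNP genes and 6 of 10 SR genes, against 49.4% of all genes. The median log2 fold change was −0.02 over members and 0.00 over all genes. Within pairs of libraries with the same number, KO lay below WT in all 3 pairs for 13 of 30 members, 12 hnRNP genes and Srsf11, against 18.1% of all genes, and above in all 3 for 2, Srsf9 and Hnrnpul1, against 17.4%. Without KO library 1 the count of lower members was 13 and the median 0.01, and without KO library 2 the count was 26 and the median −0.04. Groups that did not overlap downward numbered 8 without WT library 2 (11.8% of all genes) or without KO library 1 (12.3%). Members with an unadjusted p under 0.05 numbered 1 without KO library 2 (293 of all 9452 genes) or KO library 3 (312). The spread between libraries of a group was a median of 6.45% of the level for members, and 7.08% for all genes at 20 CPM or more. It ran from 2.03% for Hnrnpk to 22.4% for Srsf3. The 95% intervals of Srsf5 (−0.15 to 0.14), Hnrnpab (−0.17 to 0.15), and Hnrnpm (−0.14 to 0.15) covered 0 on both sides.

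**Figure D2:**
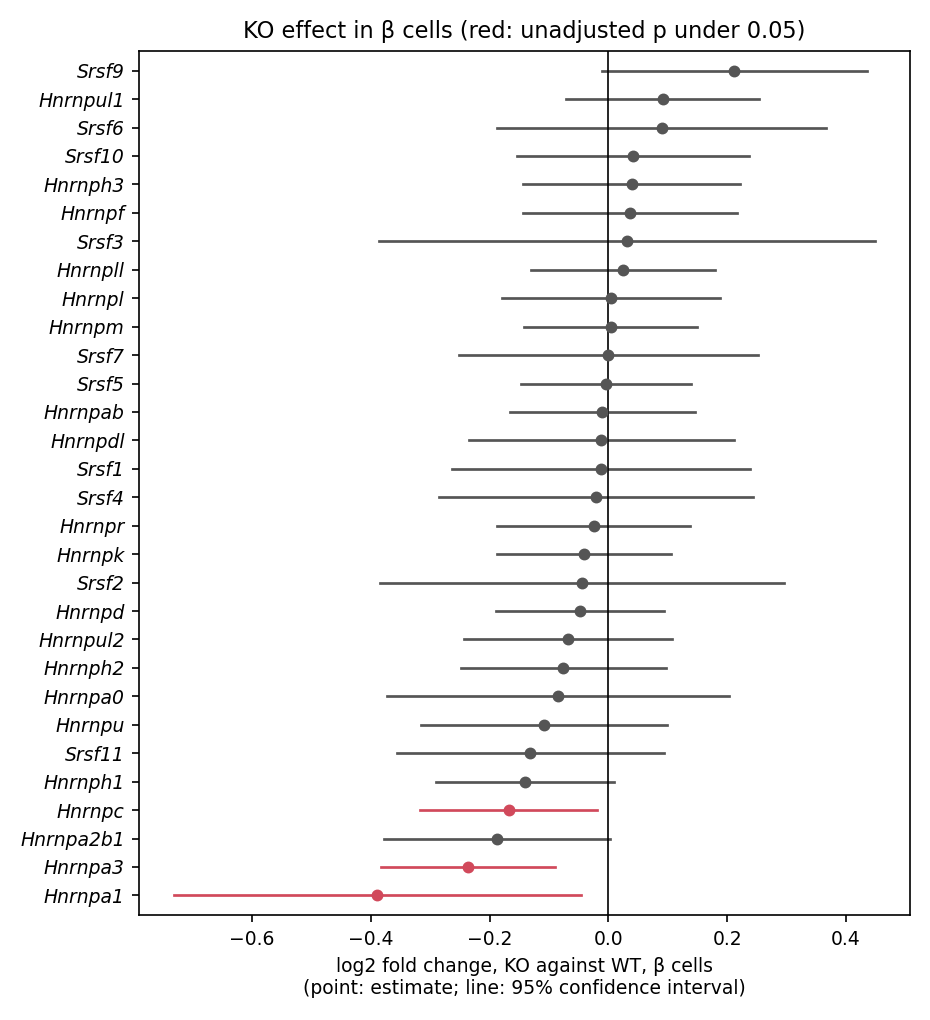
Log2 fold change of 30 members in β cells, KO against WT, with 95% confidence intervals from edgeR (3 libraries a group) and members with an unadjusted p under 0.05 in red. The 3 red members, Hnrnpa1, Hnrnpa3, and Hnrnpc, lie below 0, Srsf9 is the highest, and none passed the adjusted threshold.

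Most β cells held a UMI of most members. The share of WT β cells with a UMI had a mean of 99.3% for Hnrnpa2b1, the highest, and 53.0% for Srsf4, the lowest apart from Srsf12, at 5.72%. The share was lower in KO for 29 of 30 members, beside the lower UMI count of the KO cells used. After thinning to 5000 UMIs per cell, with 0 cells too shallow, it was lower for 18 of 30. Hnrnpa2b1 was the 1 member whose thinned groups did not overlap, at 67.9%, 72.2%, and 74.4% in WT and 67.7%, 64.8%, and 66.6% in KO. The gap between the nearest of these libraries was small. Shares of cells with a UMI were computed for the members only. These counts thus have no share over all genes beside them and cannot be read as particular to the members. The thinned share of Hnrnpa1 was 38.1 ± 2.02% in WT and 34.1 ± 4.78% in KO (SD, n = 3 each). Srsf12 had 1 UMI in 916 endothelial cells and 1 in 533 macrophages. The other 30 members were measured in every type tested, so none of these types gives a background share for free RNA of those members.

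In the 4 other cell types, no member was called between genotypes by edgeR, nor by DESeq2 or with the replicate block. Of all genes tested, 0.0% were called by edgeR without the block in each of α, δ, endothelial, and macrophage cells. The block called 8, 3, 35, and 21 genes in these types, and DESeq2 1, 0, 0, and 1. An unadjusted p under 0.05 occurred for 1 member in α cells, Hnrnpul1, and for 0 in the other types, against 3.93%, 3.67%, 3.47%, and 6.33% of all genes in α, δ, endothelial, and macrophage cells, and for 0 by DESeq2 in each. With the replicate block the member counts were 3, 0, 1, and 0, against 6.29%, 5.21%, 10.1%, and 9.69% of all genes. Values were lower in KO for 9 of 30 members in α cells, 20 in δ cells, 14 in endothelial cells, and 17 in macrophages. The member medians were 0.03, −0.04, 0.01, and −0.03, and the medians over all genes were all 0.00. Hnrnpa1 had 154, 156, and 166 CPM in WT α cells and 155, 167, and 148 CPM in KO α cells. Its log2 fold change was −0.02 in α cells, −0.11 in δ cells, −0.17 in endothelial cells, and −0.20 in macrophages, where the groups did not overlap. For Hnrnpa3 the 4 values were 0.01, −0.06, −0.12, and −0.13, and for Hnrnpc 0.06, −0.01, 0.04, and 0.02. None of these passed the test.

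Whether the KO effect differed between β cells and another type was tested in 1 model with library as a term and every cell kept. No member was called by edgeR for α, δ, endothelial, or macrophage cells, nor by limma-voom. Of all genes, 0.0266% were called for α cells and 0.00887% for each of δ, endothelial, and macrophage cells. By limma-voom, 3 members had an unadjusted p under 0.05 against α cells and 0 against the other types, a count without a share over all genes here. By edgeR, 1 member had such a p against α cells (3.95% of all genes by edgeR alone), and 0 against the other types. That member was Hnrnpa1, whose log2 fold change was higher in α cells than in β cells by 0.40 ± 0.16 (95% interval 0.06 to 0.73, edgeR adjusted p = 1.0). For Hnrnpc the difference was 0.23 ± 0.11 and for Hnrnpa3 0.27 ± 0.15 (edgeR adjusted p = 1.0 for each). The median difference between α and β cells was 0.14 over members and 0.00 over all genes, with 17 of 20 hnRNP genes above 0 and 5 of 10 SR genes.

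**Figure D3:**
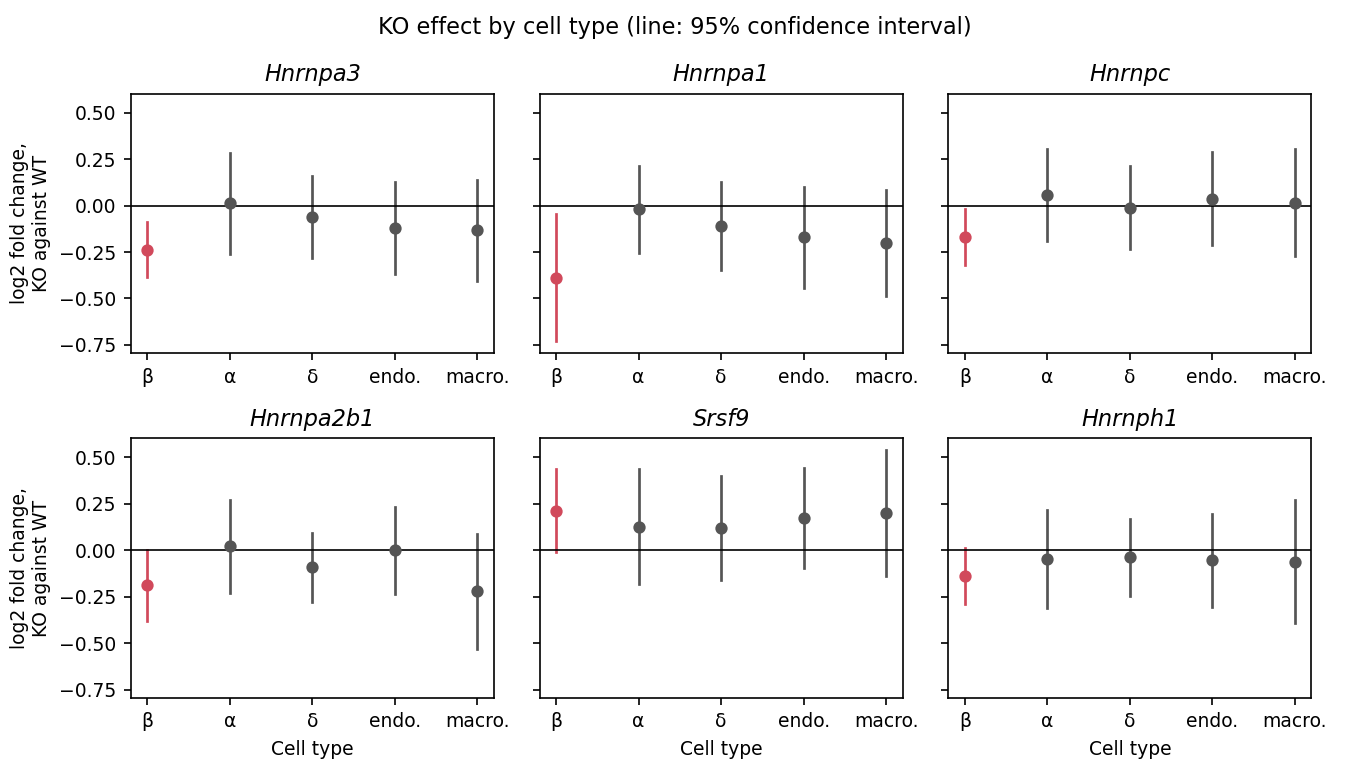
Log2 fold change, KO against WT, of the 6 members with the lowest p in β cells, in each of 5 cell types, with 95% confidence intervals (β cells in red, 3 libraries a group). Hnrnpa1 lies at −0.39 in β cells and −0.02 in α cells with intervals that overlap, and Srsf9 lies above 0 in all 5 types.

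Between cell types the differences were far larger, and several members were lower in β cells than in endothelial cells or macrophages. Levels here are TMM-scaled CPM over the sums of all 5 types, a scale on which β values are higher than in the fit of β cells alone. A call between types needed a false discovery rate under 0.05 and a log2 difference beyond 1 in either direction. Against endothelial cells, 4 members were lower in β cells and 0 higher, against 18.7% and 27.7% of all genes. Against macrophages, 4 were lower and 1 higher, against 18.3% and 27.6% of all genes. The share of members called lower was not above that background. Against α cells, 0 were called in either direction (8.14% of all genes higher in β cells, 7.71% lower), and against δ cells likewise 0 (6.03% higher, 8.44% lower). DESeq2 called 0 against α cells and 1, Srsf7, against δ cells.

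Hnrnpf, which binds G-rich RNA, ranged from 153 to 175 CPM (median 164) over the 6 libraries in β cells and from 399 to 486 CPM (median 447) in macrophages. In endothelial cells it lay between 353 and 393 CPM (median 377), while α and δ cells overlapped with β cells. Its log2 difference, β minus the other type, was −1.46 ± 0.07 against macrophages (edgeR adjusted p = 3.457e-19) and −1.21 ± 0.07 against endothelial cells (edgeR adjusted p = 1.739e-17). Hnrnpa0, which binds AU-rich elements, had the largest difference of any member between endothelial and β cells, at 144 to 337 CPM (median 204) against 67.5 to 90.3 CPM (median 74.2) in β cells. Its endothelial level spread widely, with the lowest and the highest both in KO libraries. The log2 difference was −1.44 ± 0.08 (edgeR adjusted p = 3.438e-17).

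Srsf2, a component of nuclear speckles, lay between 70.9 and 106 CPM (median 83.3) in β cells, 162 and 195 CPM (median 184) in endothelial cells, and 201 and 226 CPM (median 213) in macrophages. The β cell libraries all lay below those of both other types. Its log2 difference was −1.09 ± 0.06 against endothelial cells and −1.32 ± 0.07 against macrophages. Srsf3, an adaptor of mRNA export, lay between 106 and 176 CPM (median 127) in β cells and 293 and 362 CPM (median 326) in macrophages. Its log2 difference was −1.09 ± 0.08 against endothelial cells and −1.29 ± 0.09 against macrophages. Srsf9 was the SR gene with the widest range, from 63.3 to 89.3 CPM (median 71.0) in β cells to 152 to 238 CPM (median 186) in macrophages, a log2 difference of −1.37 ± 0.08 (edgeR adjusted p = 3.375e-17). The gaps of these SR genes were smaller on CPM of UMIs outside hormone and mitochondrially encoded genes, without TMM. There Srsf2 had means of 136 CPM in β cells, 237 CPM in endothelial cells, and 211 CPM in macrophages. Srsf3 was at 213.5 CPM in β cells and 322.7 CPM in macrophages, and Srsf9 at 115 and 188 CPM. No test was run on that scale.

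Hnrnph3 was the 1 member called higher in β cells, at 47.3 to 55.2 CPM (median 52.5) against 15.5 to 30.2 CPM (median 22.1) in macrophages. Its log2 difference was 1.21 ± 0.11 (edgeR adjusted p = 1.494e-11), or 0.99 without WT library 1, which is below the fold threshold. Hnrnph3 was higher still in α cells, at 71.4 to 78.7 CPM (median 74.4). Srsf4 was high in endothelial cells, at 53.8 to 70.9 CPM (median 62.2) against 27.8 to 35.0 CPM (median 31.6) in β cells, with a log2 difference of −0.99 ± 0.08 just short of the threshold, which it passed with DESeq2. Srsf7, which shuttles with mRNA, was just short of it against δ cells (−0.99 ± 0.07), at 186 to 246 CPM (median 212) against 97.3 to 124 CPM (median 105) in β cells.

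Smaller differences set β cells below α cells for most members. By the false discovery rate alone, 17 of 30 members were lower and 3 higher in β cells than in α cells, against 25.4% and 30.5% of all genes. Against δ cells, 12 were lower and 5 higher, against 25.5% and 30.0% of all genes. Relative to the median of all genes, the member median was −0.21 against α cells, −0.13 against δ cells, −0.46 against endothelial cells, and −0.36 against macrophages. SR genes were lower in β cells for 9 of 10 against α cells and 9 of 10 against δ cells, with medians of −0.46 and −0.24, while hnRNP genes had medians of −0.17 and 0.00. Srsf1, Srsf2, Srsf3, Srsf5, Srsf7, Srsf10, and Hnrnph3 had differences between −0.43 and −0.57 against α cells. The members with higher levels in β cells than in α cells by the test were Srsf4, Hnrnpul2, and Hnrnph2. The direction depends on the scaling, since hormone transcripts fill different shares of each type. Insulin UMIs made up a median of 39.8% in β cells, and glucagon UMIs 20.9% in α cells. With library totals in place of TMM, the median of all genes moved to −0.43 against α cells, −0.58 against δ cells, −0.53 against endothelial cells, and −0.09 against macrophages. On that scale 30 of 30 members were lower in β cells against α, δ, and endothelial cells, and 24 of 30 against macrophages. Relative to those medians the member medians were −0.21, −0.13, −0.46, and −0.36, as with TMM.

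On the TMM scale, 12 members had their highest mean in macrophages (3 with library totals in place of TMM), 8 in α cells, 7 in endothelial cells, 2 in δ cells, and 1, Hnrnpul2, in β cells. The least variable members were Hnrnpl, with means of 83.3 to 94.6 CPM over the types, and Hnrnpdl, with 155 to 182 CPM. Endothelial and macrophage droplets held medians of 3.92% and 3.35% insulin UMIs, so a part of their counts can come from β cells, and its size for the members was not tested.

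**Figure D4:**
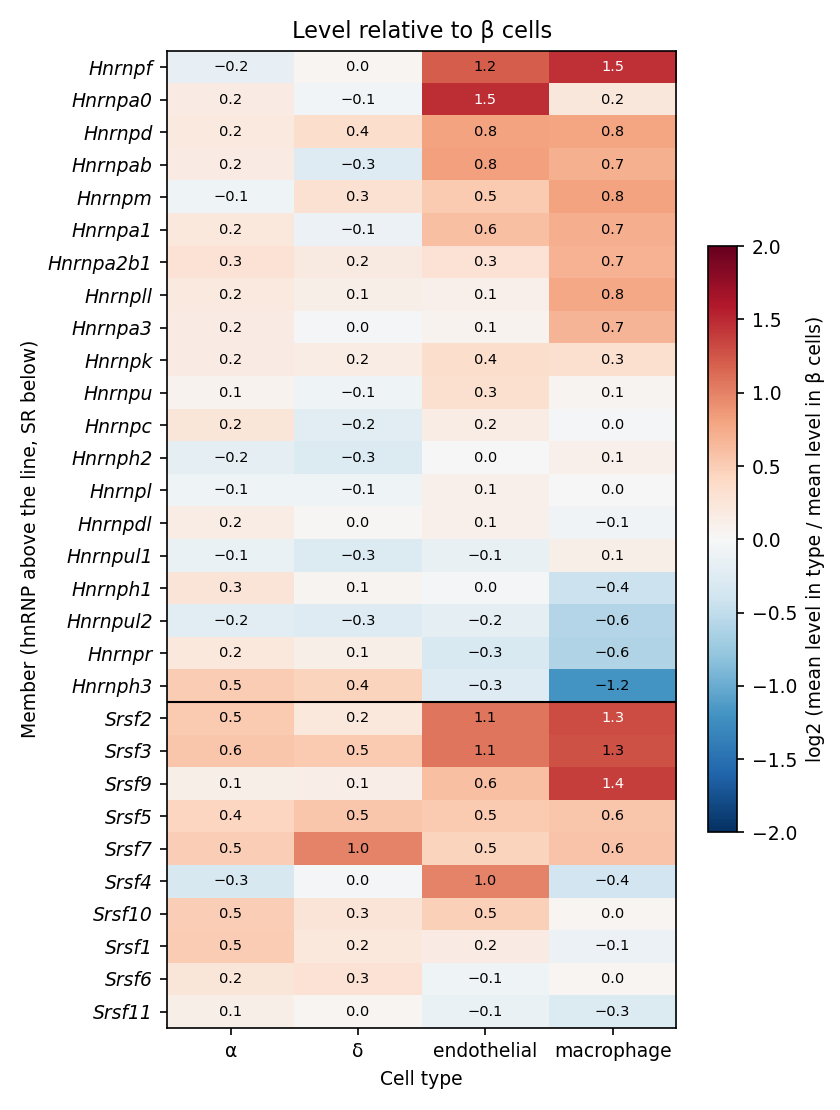
Mean level of 30 members in α, δ, endothelial, and macrophage cells relative to β cells, as a log2 ratio of means over 6 libraries (TMM-scaled CPM), with hnRNP genes above the line and SR genes below. Hnrnpf, Srsf2, and Srsf3 are high in endothelial cells and macrophages, Hnrnpa0 and Srsf4 in endothelial cells, Srsf9 in macrophages, and Hnrnph3 is low in macrophages.

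Pancreatic polypeptide (PP), B, and T cells were too few in some libraries for a test and are described in libraries with at least 20 cells, on CPM of UMIs outside hormone and mitochondrially encoded genes. B and T cell droplets held medians of 8.93% and 9.32% insulin UMIs. On this scale Hnrnpa1 was at 422 ± 113 CPM in B cells (SD, n = 5 libraries), 303 ± 35.4 CPM in T cells (n = 4), and 207 ± 44.7 CPM in β cells (n = 6). Hnrnpll, known for its part in lymphocyte splicing, was at 7.32 ± 4.68 CPM in B cells, 33.0 ± 8.42 CPM in T cells, and 58.5 ± 2.46 CPM in β cells. Every T cell library lay above every β cell library for 4 of 30 members and below for 12, against 12.0% and 57.3% of the genes tested between types. Every B cell library lay above for 3 and below for 9, against 8.83% and 52.9%. PP cells lay above β cells in this way for 4 members and below for 0, against 12.5% and 20.8%.

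For 6 of 10 SR genes, levels in β cells were highest in the libraries numbered 2. Srsf3 was at 117 CPM in WT library 2 and 130 CPM in KO library 2, against 79.0 to 100.4 CPM in the other WT libraries and 85.8 and 86.9 CPM in the other KO libraries. Srsf2 was at 78.5 and 73.0 CPM in the libraries numbered 2, against 53.2 to 62.5 CPM in the other 4. Library 2 was the highest in both genotypes for Srsf1, Srsf2, Srsf3, Srsf6, Srsf7, and Srsf10, not for Srsf4, Srsf5, Srsf9, or Srsf11, and for 4 of 20 hnRNP genes, against 19.3% of all genes. Library 1 was the highest in both for 10 of 20 hnRNP genes, 1 of 10 SR genes, and 20.3% of all genes. In other types library 2 was the highest in both genotypes for 1 SR gene in α cells and 2 each in δ, endothelial, and macrophage cells, against 12.8%, 14.0%, 18.5%, and 14.8% of all genes. The libraries numbered 2 also held the most B cells, 1236 and 874 against 12 to 192 in the others. The summed level of 6 B cell markers in the β cells used was 106 and 34.3 CPM in them, against 5.47 to 9.44 CPM. Their β cells had the fewest UMIs in each genotype. None of the 6 markers was at 0 in every library, and the part of these features in the SR values was not tested.

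**Figure D5:**
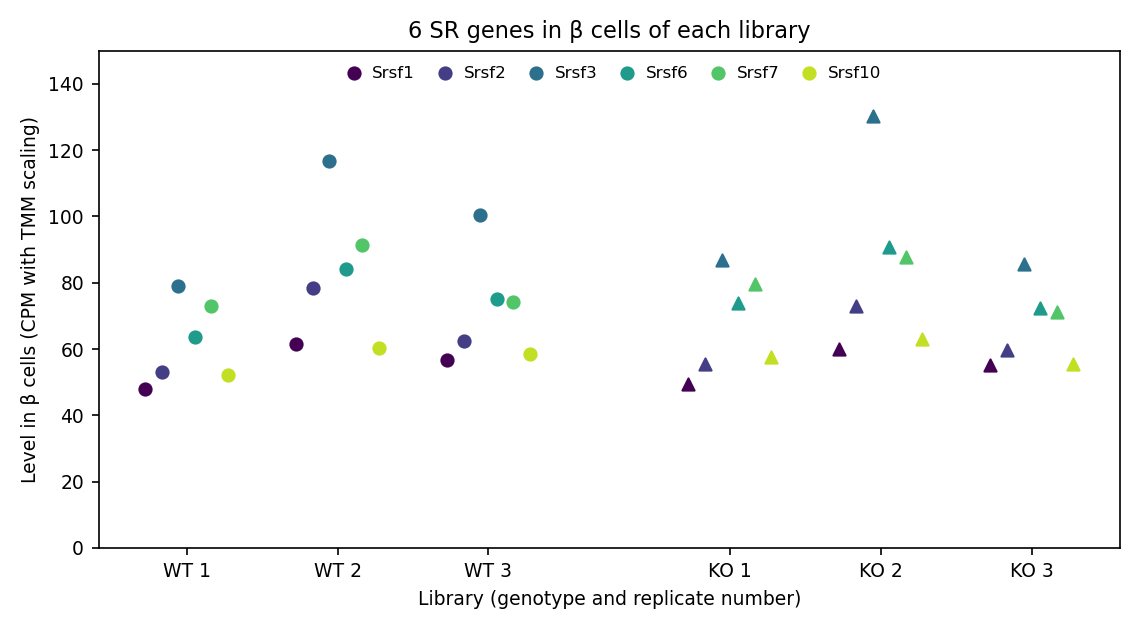
Level in β cells (TMM-scaled CPM, axis from 0) of the 6 SR genes that were chosen because library 2 was the highest in both genotypes. Each of 3 WT libraries (circles) and 3 KO libraries (triangles) is shown. By that choice the libraries numbered 2 hold the highest value of each gene in both genotypes, with Srsf3 at 117 and 130 CPM. Srsf4, Srsf5, Srsf9, and Srsf11 did not follow this order and are not drawn.

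Genes around the 2 families were counted from lists of related factors. In β cells no gene of any list was called between genotypes by edgeR. Over all genes tested, 49.4% had lower values in KO and 5.05% an unadjusted p under 0.05. The counts by list were not repeated with 1 library left out. The genes named were those of lowest p in each list. Of the SR-related proteins, 14 of 15 had lower values in KO and 2 had an unadjusted p under 0.05, with a median log2 fold change of −0.06. Tra2b, an SR-like enhancer of exon inclusion, was at 97.7 ± 10.9 CPM in WT and 80.2 ± 7.82 CPM in KO (SD, n = 3 each), a log2 fold change of −0.28 without overlap. Its nearest libraries differed little, at 91.0 CPM in WT library 3 and 89.2 CPM in KO library 1. Rnps1, of the exon junction complex, was at −0.20, and Luc7l, a U1 snRNP-associated protein, at −0.13. Of the kinases and importers of SR proteins, 9 of 11 had lower values and 0 an unadjusted p under 0.05, with Tnpo3, the SR protein importer, at −0.11, Dyrk1a at −0.08, and Clk2 at −0.10. Of other hnRNA-binding proteins, 10 of 16 had lower values and 3 an unadjusted p under 0.05, with Ewsr1 at −0.20, Pcbp1 at −0.16, and Ptbp2, the neuron-type polypyrimidine tract-binding protein, at −0.29. Of tissue-restricted regulators, 8 of 9 had lower values and 0 an unadjusted p under 0.05, with Mbnl1 at −0.14, Celf4 at −0.08, and Nova2 at −0.12. Of 31 core snRNP proteins, 16 had lower values and 0 an unadjusted p under 0.05, with Sf3b3 at −0.16, Snrnp70 at −0.14, and Prpf31 at 0.23. These log2 fold changes all had edgeR adjusted p-values of 0.872 or above.

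The lists differed by cell type in their own ways. Of 10 tissue-restricted regulators tested, 8 were higher in β cells than in macrophages and 1, Mbnl1, lower, against 27.6% and 18.3% of all genes. The median log2 difference was 2.62 against 0.19 for all genes. Against endothelial cells 5 were higher and 1, Nova2, lower (27.7% and 18.7% of all genes), with a median of 2.07 against 0.15. Some of these levels were low, with Rbfox3 at 2.56 CPM in β cells and 0.58 CPM in macrophages, and Nova2 at 0.39 CPM in macrophages. Against α cells 2 were higher and 2 lower (median −0.06), and against δ cells 1 higher and 1 lower (median −0.21). Esrp1, an epithelial splicing regulator, was at 101 ± 8.90 CPM in β cells, 37.4 ± 5.69 CPM in α cells, 38.5 ± 5.74 CPM in δ cells, 6.83 ± 2.72 CPM in endothelial cells, and 11.0 ± 4.30 CPM in macrophages (SD, n = 6 libraries each). It was called higher in β cells against all 4 types, with a log2 difference of 1.45 ± 0.10 against α cells. Rbfox3, a neuronal regulator, was highest in δ cells, with a log2 difference, β minus δ, of −3.07 ± 0.20. Core snRNP proteins had lower values in β cells for 26 of 31 against endothelial cells, with 7 called (18.7% of all genes), and 27 of 31 against macrophages, with 9 called (18.3%), and none was called higher. Their medians were −0.65 and −0.82, further below the medians of all genes than those of the hnRNP and SR genes. Of other hnRNA-binding proteins, Raly and Rbm3 were called lower in β cells against both endothelial cells and macrophages, Cirbp, a cold-inducible protein, higher against macrophages, and Ptbp3 higher against α cells. Srpk2, an SR protein kinase, was called higher in β cells against endothelial cells (1.29 ± 0.07) and macrophages (1.06 ± 0.08). Of the same list of 11, Tnpo1 was called higher against macrophages and Clk3 lower against endothelial cells (−1.40 ± 0.08), and the list medians were 0.02 against endothelial cells and 0.24 against macrophages. No SR-related protein was called against any type. Esrp1, Rbfox3, and the other genes named in this comparison of types were picked after their values were seen.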

How the data were processed

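Islet cells of 3 WT and 3 KO mice were profiled, 1 library each. The authors processed the reads with Cell Ranger 6.0.2 on mm10 and deposited UMI counts per gene and barcode as whole numbers, without normalization. Barcodes with at least 500 genes and at most 10% mitochondrial UMIs were kept. Doublets were the top Scrublet scores, at 0.8% of barcodes per 1000 barcodes, since the automatic threshold marked over 0.5% in 1 library only. β cells had at least 20% insulin UMIs and 10000 UMIs, α cells at least 5% glucagon, δ cells at least 3% somatostatin, PP cells at least 10% Ppy, and other types at least 4 of their markers and a lead of 3. UMIs were summed per library and type, and types that reached 20 cells in all 6 libraries were tested.

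edgeR 4.0.16 (quasi-likelihood, TMM, Benjamini-Hochberg over all genes) was fitted to genes with a UMI in over 15% of cells of either genotype, with DESeq2 1.42.0 and limma 3.58.1 as alternatives. The edgeR script was tested on counts simulated from the β cell sums, 9452 genes in all. It called 19.4% of genes changed 1.25-fold, 86.6% of those changed 1.5-fold, and 100% of those changed 2-fold. False calls numbered 16, beside 67 genes changed 1.25-fold, 67 changed 1.5-fold, and 66 changed 2-fold. Most of the 67 genes changed 1.25-fold were thus missed. Whether these shares hold for the members was not tested. Libraries of the same number deviated together in β cells (correlations 0.543, 0.472, and 0.22 over genes), so a replicate block was fitted as an alternative. Given in full are the 6 highest members, the 8 of lowest p, those without overlap, and the 6 of largest range over types. Related genes come from 5 lists, at most 3 named per list by p in β cells. Members and lists were chosen with earlier results of these data known. Annotation was GENCODE vM21, matching 99.6% of gene identifiers, and promoters came from RefSeq.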

Additional observations from a re-analysis of the deposited data

How the results depend on the processing

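In every alternative fitted, 0 members were called between genotypes in β, α, δ, endothelial, or macrophage cells. The difference in KO effect between β cells and another type also gave 0 in every alternative fitted. In β cells, members with an unadjusted p under 0.05 went from 3 to 6 with the replicate block (5.05% to 12.5% of all genes), which changed no call of a member, and ranged from 1 to 4 with 1 library left out. Members whose KO libraries lay entirely under the WT libraries ranged from 5 to 8 with 1 library left out, against 4 with all libraries, partly by construction, as fewer libraries overlap less (9.43% to 12.3% of all genes, against 5.76%). The median log2 fold change of the members ranged from −0.05 to 0.01 in β cells. Against δ cells, Srsf7 took the count of members called lower in β cells from 0 to 1 with DESeq2, with RLE size factors, with hormone and mitochondrial genes left out, and in leave-one-out fits (range 0 to 1). Library totals in place of TMM gave 1 member called lower against α cells and 4 against δ cells. They gave 15 against endothelial cells and 8 against macrophages, and members called higher against macrophages went from 1 to 0. Totals move all genes in 1 direction. The shares of all genes called that are given above belong to the TMM fit, so these counts cannot be read against them. Leaving out 1 library gave 0 to 1 called higher against macrophages, and 4 to 5 called lower against endothelial cells. The fifth, Srsf4, was also called with DESeq2, with RLE size factors, without doublet calls, at the 20% mitochondrial limit, with no filter, and with hormone and mitochondrial genes left out. With no filter on low counts, Srsf12 added 1 member called higher against endothelial cells and made 2 against macrophages. Members highest in β, α, δ, endothelial, and macrophage cells numbered 1, 8, 2, 7, and 12 with TMM, 0, 2, 5, 20, and 3 without it, and 4, 10, 6, 9, and 1 on CPM outside hormone and mitochondrial genes. Lower shares of cells with a UMI in KO went from 29 to 18 members with thinning. The cause of these shifts was not tested further. Of 261 refits of single members, 259 kept their direction and side of the threshold, the exceptions being Hnrnph3 against macrophages with library totals (0.93) and without WT replicate 1 (0.99). The refits did not include CPM outside hormone and mitochondrial genes without TMM. On that scale the gaps of Hnrnpf were smaller, with means of 256 CPM in β cells, 490 CPM in endothelial cells, and 441 CPM in macrophages. Hnrnpa0 was at 121 CPM in β cells and 277 CPM in endothelial cells. The types other than β cells held 46 to 237 cells per library, which limits the precision there.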
